A study of Mus musculus with 8 samples.

Results

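The genes described here encode proteins of the extracellular matrix, the integrins that bind it, the proteases that cut it and their inhibitors, and the transforming growth factor beta (TGF-beta) group that governs matrix production. They were measured in hearts of mice labelled ARE-/- and WT. The members are the protein-coding rows of the authors' deposited table whose gene name begins with Col or Adam and a digit, Adamts, Mmp, Timp and a digit, Lox, Itga, Itgb, Lama, Lamb, Lamc, Fbln, Fbn, Tgfb, Ltbp or Smoc. The rule finds 59 genes among 4820 listed genes, 4442 of them protein-coding. By name these families hold 198 protein-coding genes in the GENCODE M21 annotation, so 29.8% of them are listed, against 20.1% of all protein-coding genes of that annotation. The name prefixes also bring in a few genes with other roles, such as Itgb1bp2, whose product binds an integrin tail.

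The samples were hearts of 4 ARE-/- and 4 WT male mice of strain C57B6/J, aged 20 to 25 weeks, with no treatment named, and total RNA of each was sequenced in paired-end mode. ARE is not spelled out in the labels. It is read here as the AU-rich element of the 3′ end of the Ifng transcript, which in mouse limits the life of the mRNA of interferon gamma. The labels give no allele for the WT mice and do not say whether the ARE-/- allele acts in all cells. The study's title names interferon gamma, androgens and mitochondrial function, and the comparison made was ARE-/- against WT.

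The cardiac matrix is a network of fibrillar collagens made mainly by fibroblasts, with a basement membrane of laminins and type IV collagen around each cardiomyocyte and vessel. Integrins are pairs of an alpha and a beta chain that tie cells to this matrix, and leukocytes carry integrins of their own for adhesion to vessel walls and to other cells. Matrix metalloproteinases (MMPs), ADAM and ADAMTS proteases cut matrix and cell surface proteins, and tissue inhibitors of metalloproteinases (TIMPs) block them. TGF-beta is secreted in a latent form that is held in the matrix by latent TGF-beta binding proteins and released by integrins and proteases.

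Library totals ran from 13416171 to 19432098 reads in ARE-/- hearts and from 14321679 to 17129012 reads in WT hearts. Ifng had 103, 37, 27 and 61 reads in the ARE-/- libraries in order of replicate number, against 0, 3, 0 and 1 in the WT libraries. Of 14 cardiomyocyte markers 9 were listed. In ARE-/- hearts 7 were lower, among them Tnnt2, Ttn and Mb, and 2 were higher, Nppa and Nppb. In normalised counts (read counts divided by the authors' size factors) the 9 summed to 367070 to 532251 in ARE-/- hearts. The sums in WT hearts were 672221 to 956387. Replicate 1 of ARE-/- and replicate 3 of WT stood apart from the other 3 libraries of their group. The biological coefficient of variation was 26.9% over all 4 ARE-/- libraries and 6.03% without replicate 1, against 15.1% over all 4 WT libraries and 6.42% without replicate 3. Each of those 2 libraries was the farthest from its group mean in 33 of the 59 members.

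Of the 59 members, 36 were higher and 23 lower in ARE-/- hearts. The table lists only genes that passed an adjusted p of 0.05 in the authors' DESeq2 test, 24.6% of the 19606 genes that the adjustment implies were tested, so "rose" and "fell" below mean that call. The risen members make up 61% of the 59, against 52.1% of all listed genes, and the fallen 39% against 47.9%. A log2 difference here is the ARE-/- mean less the WT mean of log2-transformed normalised counts, with 0.5 added first. Its median was 0.60 over the members and 0.44 over all listed genes. In 51 members the 4 ARE-/- values lay wholly to one side of the 4 WT values (86.4%, against 81.5% of all listed genes). The 139 family genes that are not listed were not analysed here, and they include Col1a2, Col4a1, Fbn1, Lox and Itgb1.

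**Figure D1:**
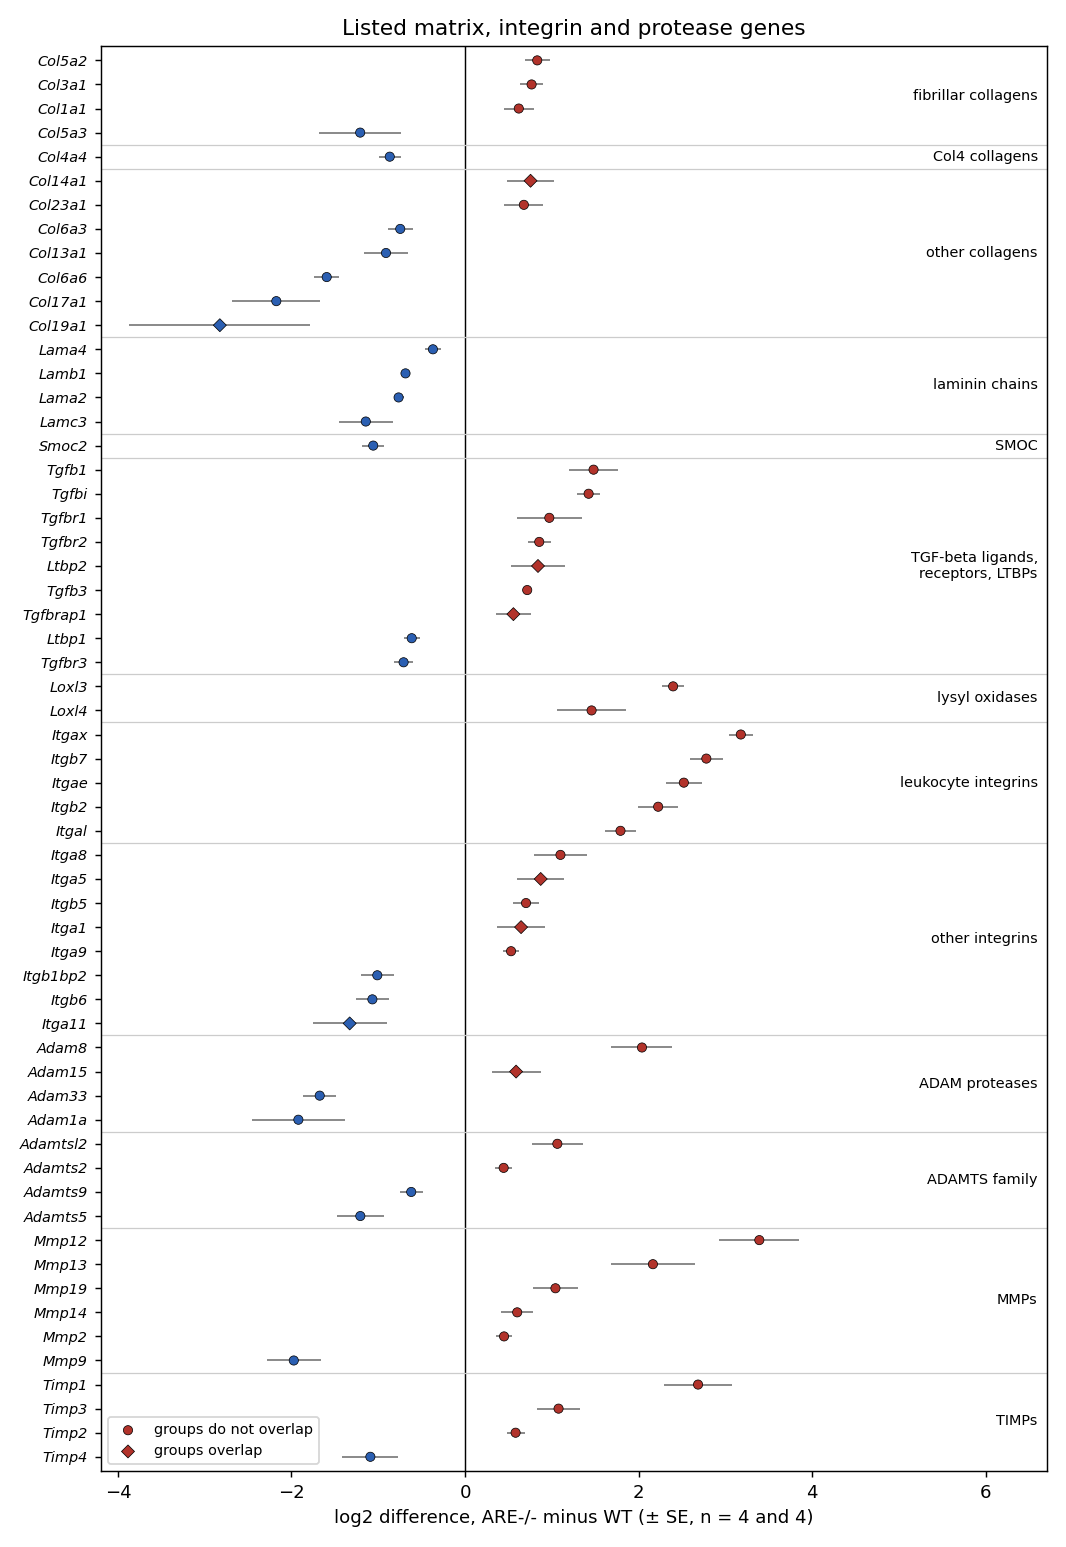
Log2 difference of each of the 59 listed members, ARE-/- minus WT (x axis, mean ± SE, 4 libraries per group), one row per gene grouped by class. Red symbols rose and blue symbols fell in the authors' test, and diamonds mark members whose groups overlapped. Mmp12, Itgax, Itgb7, Timp1, Itgae and Loxl3 lie farthest to the right, and all 4 laminin chains lie left of 0.

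The leukocyte integrins rose together and were among the largest changes. All 5 listed genes of the 9 in this class rose, and their summed level was 2176 to 2368 normalised counts in the ARE-/- libraries, against 359 to 616 in the WT libraries. No library of one group reached the other in any of the 5. As in every other comparison here, more cells of a type and more RNA per cell cannot be told apart in bulk tissue.

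Itgax encodes CD11c, an integrin chain of dendritic cells and some macrophages (ENSMUSG00000030789, chromosome 7, 128129547 to 128150656, forward strand, mm10). It had 221, 247, 257 and 295 normalised counts in ARE-/- hearts, against 32.4, 26.3, 30.0 and 22.6 in WT hearts. The lowest ARE-/- value was far above the highest WT value, and the log2 difference was 3.18 ± 0.14 (SE, 4 and 4 libraries), a 9.05-fold rise with the smallest adjusted p among the members (authors' DESeq2 5.08e-41). Itgb7, the beta chain of the gut-homing and epithelial-binding integrins of lymphocytes, had 657, 729.5, 799 and 784 normalised counts in ARE-/- hearts, against 108, 104, 147 and 80.2 in WT hearts. Its groups were also widely apart, with a log2 difference of 2.78 ± 0.19 and an adjusted p of 6.15e-39 (DESeq2). Its alpha partner Itgae, CD103 of intraepithelial T cells and some dendritic cells, had 90.8, 101, 94.8 and 127 normalised counts in ARE-/- hearts, against 20.4, 12.0, 19.4 and 19.5 in WT hearts. It rose by 2.52 ± 0.21 on the log2 scale (DESeq2 adjusted p = 3.23e-16), and the low WT value was that of replicate 2.

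Itgb2 encodes CD18, the beta chain shared by CD11a, CD11b and CD11c. It had 803, 839, 717 and 763 normalised counts in ARE-/- hearts, against 142, 135, 265 and 150.1 in WT hearts, with replicate 3 the highest of WT. The log2 difference was 2.23 ± 0.23 (DESeq2 adjusted p = 2.93e-18). Itgal, CD11a, was the fifth and rose by 1.79 ± 0.18 on the same scale. In FPKM, which allows levels of different genes to be compared, Itgb7 stood at 18.8 ± 0.435 and Itgb2 at 17.9 ± 2.56 in ARE-/- hearts (SD, n = 4), against 2.43 ± 0.634 and 3.46 ± 1.30 in WT hearts. Itgax was lower in both groups, at 4.26 ± 0.296 FPKM in ARE-/- and 0.407 ± 0.0601 in WT hearts.

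Leukocyte markers moved with these integrins. All 15 listed markers of 22 rose, with a median log2 difference of 2.18, and 3 of the 15, Itgax, Itgal and Itgb2, are themselves members. The other 12 summed to 17464 to 33057 normalised counts in ARE-/- hearts, against 5130 to 9784 in WT hearts. Those of the 12 with the smallest adjusted p were Nkg7 (3.50 ± 0.26), Laptm5 (2.15 ± 0.14), Cd68 (2.75 ± 0.25) and Csf1r (1.33 ± 0.07). The order is not that of the size of the rise. None of the listed markers was at 0 in a whole group, and their part in the integrin values was not tested. Of 38 genes for integrin activators, adaptors and counter-receptors, 21 were listed, 17 risen and 4 fallen, with a median of 0.86. The 4 of smallest adjusted p all rose. They were Fermt3, the kindlin of blood cells that activates integrins (1.92 ± 0.14), the leukocyte parvin Parvg (2.23 ± 0.11), Icam1, the endothelial ligand of CD11a and CD18 (1.99 ± 0.21), and the kinase Ptk2b (1.61 ± 0.23). Their adjusted p ran from 1.9e-24 for Fermt3 to 1.2e-09 for Ptk2b in the authors' DESeq2 test.

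**Figure D2:**
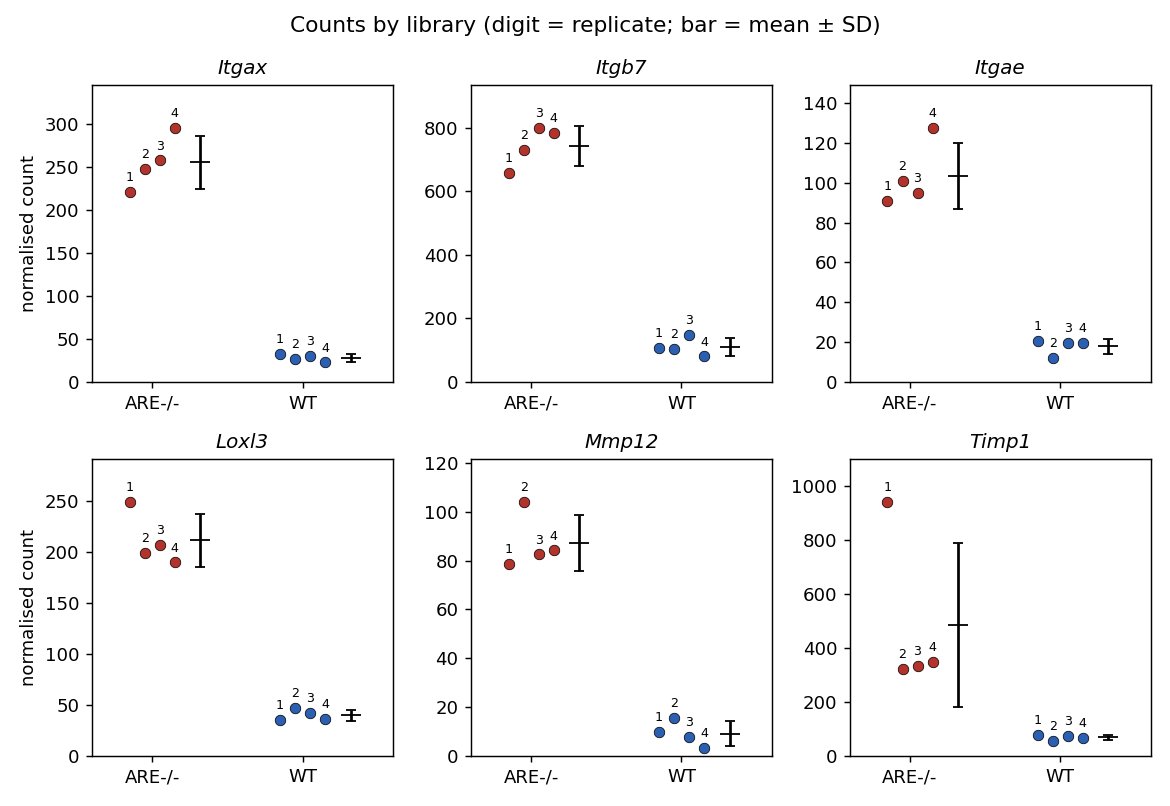
Normalised count (y axis, from 0) of 6 risen members in each of the 4 ARE-/- libraries (red, left) and 4 WT libraries (blue, right); the digit is the replicate number and the black bar is mean ± SD. In all 6 every ARE-/- point lies above every WT point, and Timp1 in ARE-/- replicate 1, at 942, stands well above the other 3.

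Among the other integrin genes the changes were smaller and went both ways. Of 22 genes in this class 8 were listed, 5 risen and 3 fallen, and the groups overlapped in 3 of the 8. Itgb5, a vitronectin receptor chain that can release latent TGF-beta, was the most abundant integrin chain listed, at 58.6 ± 6.61 FPKM in ARE-/- hearts and 31.3 ± 2.72 in WT hearts (SD, n = 4 each). It had 1970.4, 2998, 2801 and 3008 normalised counts in ARE-/- hearts, against 1599.9, 1609, 1529.6 and 1801 in WT hearts. Replicate 1 was the lowest of ARE-/- and still above all WT values, and the log2 difference was 0.70 ± 0.15 (DESeq2 adjusted p = 0.000345). With offsets that remove the trend with GC content the edgeR estimate was 0.01 (adjusted p = 1). Itga8, a chain found on mesenchymal cells and smooth muscle, had 179.9, 72.7, 101 and 92.1 normalised counts in ARE-/- hearts, against 56.5, 58.6, 42.6 and 40.1 in WT hearts. Its rise of 1.10 ± 0.31 on the log2 scale (DESeq2 adjusted p = 0.00267) was 0.84 without ARE-/- replicate 1, the highest library. Itga9, which binds tenascin and osteopontin, rose by 0.53 ± 0.09 on the log2 scale (DESeq2 adjusted p = 0.00158), with 721, 608, 624 and 572 normalised counts in ARE-/- against 484, 407, 431 and 423 in WT hearts. Itga5, of the fibronectin receptor, and Itga1, of a collagen receptor, rose by 0.87 ± 0.27 and 0.65 ± 0.27 with overlapping groups. The log2 difference of Itga1 was 0.41 without ARE-/- replicate 1, and the edgeR refits that left out 1 library did not call it, at adjusted p of 0.0553 to 0.21.

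Itgb6, the beta chain of an epithelial integrin that activates TGF-beta, fell. It had 110.4, 147, 152 and 112 normalised counts in ARE-/- hearts, against 313, 285, 202 and 297 in WT hearts, a log2 difference of -1.07 ± 0.19 (DESeq2 adjusted p = 9.57e-06). Itga11, a collagen receptor chain of fibroblasts, had 9.81, 8.95, 14.0 and 18.4 normalised counts in ARE-/- hearts, against 25.2, 52.6, 17.4 and 43.2 in WT hearts. One ARE-/- library, replicate 4, lay above WT replicate 3, and the log2 difference was -1.33 ± 0.43 (DESeq2 adjusted p = 0.0138). The gene with the highest FPKM of all members was Itgb1bp2, which encodes melusin, a muscle protein that binds the tail of the beta 1 integrin and is no integrin itself. It had 1096, 1548, 1566 and 1542 normalised counts in ARE-/- hearts, against 3266, 3192, 2135 and 3039 in WT hearts. Every ARE-/- value was below every WT value, with a log2 difference of -1.01 ± 0.19 (DESeq2 adjusted p = 3.90e-06). Its fall stood beside that of 7 of the 9 listed cardiomyocyte markers. The median log2 difference over all 9, the risen ones included, was -0.79. The part of these markers in the fall of Itgb1bp2 was not tested.

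Listed matrix metalloproteinases mostly rose. Of 22 genes 6 were listed, 5 risen and Mmp9 fallen, with no overlap of groups in any of the 6. Mmp12, the elastase of macrophages (ENSMUSG00000049723, chromosome 9, 7344381 to 7369499, forward strand, mm10), had the largest log2 difference of all members, 3.39 ± 0.46, a 10.5-fold rise. It had 78.5, 104, 82.5 and 84.1 normalised counts in ARE-/- hearts, against 9.61, 15.6, 7.74 and 3.08 in WT hearts. Each WT library was low and each ARE-/- library lay above all of them (DESeq2 adjusted p = 1.10e-16). The authors' log2 fold change of Mmp12 was 3.04, below that of Itgax at 3.10, so its rank depends on the scale used. Mmp13, a collagenase that cuts fibrillar collagen, had 71.9, 66.0, 73.8 and 55.3 normalised counts in ARE-/- hearts, against 9.61, 25.1, 6.78 and 25.7 in WT hearts. WT values fell into a low and a higher pair, both below ARE-/-, and the log2 difference was 2.16 ± 0.48 (DESeq2 adjusted p = 1.47e-05).

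Mmp19 had 95.7, 70.5, 100.1 and 72.9 normalised counts in ARE-/- hearts, against 36.0, 34.7, 64.9 and 32.9 in WT hearts, a log2 difference of 1.04 ± 0.26 (DESeq2 adjusted p = 0.00628). Mmp2, the gelatinase of fibroblasts, and Mmp14, the membrane-bound enzyme that activates its product, rose by 0.45 ± 0.09 and 0.60 ± 0.19. They are far more abundant than the others, Mmp2 at 17.7 ± 0.114 FPKM in ARE-/- and 11.4 ± 0.991 in WT hearts and Mmp14 at 12.0 ± 0.99 in ARE-/- and 6.96 ± 1.32 in WT hearts, where Mmp12 stood at 1.32 ± 0.173 in ARE-/- and 0.118 ± 0.065 in WT hearts. Mmp9, the gelatinase of neutrophils and macrophages, went the other way. It had 39.2, 20.1, 27.2 and 19.2 normalised counts in ARE-/- hearts, against 69.7, 123, 129 and 94.6 in WT hearts, a log2 difference of -1.97 ± 0.31 (DESeq2 adjusted p = 5.05e-08).

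Mmp13 and Mmp12 are neighbours, 61.0 kb apart on the forward strand of chromosome 9. They are shown here with Itgax, the member of smallest adjusted p, because the 250 bases before the start sites of these 3 risen genes hold a match to the AP-1 motif TGANTCA. The sequences are from RefSeq (GRCm38.p6), 5′ to 3′ on the gene's strand, ending at the base before the start site, with motif matches in capitals. That of Mmp13 is chr9:7272264-7272513, that of Itgax chr7:128129300-128129549, and that of Mmp12 chr9:7347124-7347373, which belongs to a RefSeq start site inside the gene as the deposited table bounds it.
Mmp13: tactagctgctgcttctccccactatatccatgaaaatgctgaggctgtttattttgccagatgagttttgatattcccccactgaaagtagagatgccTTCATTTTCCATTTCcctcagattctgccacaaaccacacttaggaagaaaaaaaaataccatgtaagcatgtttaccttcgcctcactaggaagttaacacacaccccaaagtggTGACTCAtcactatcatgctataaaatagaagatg
Mmp12: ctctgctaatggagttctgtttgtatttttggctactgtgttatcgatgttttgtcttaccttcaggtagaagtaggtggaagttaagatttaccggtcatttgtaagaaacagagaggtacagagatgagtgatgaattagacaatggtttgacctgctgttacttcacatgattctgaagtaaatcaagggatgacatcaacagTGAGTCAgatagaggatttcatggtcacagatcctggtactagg
Itgax: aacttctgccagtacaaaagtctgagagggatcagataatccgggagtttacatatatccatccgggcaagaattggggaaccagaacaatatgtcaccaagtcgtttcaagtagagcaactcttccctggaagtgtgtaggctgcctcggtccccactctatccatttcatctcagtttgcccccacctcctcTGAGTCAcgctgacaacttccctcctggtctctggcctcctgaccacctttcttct
The AP-1 matches begin at -35 in Mmp13, -44 in Mmp12 and -56 in Itgax, counted from the start site, and the longer run of capitals in Mmp13 is a pair of overlapping matches to GAAANNGAA, the core of interferon response elements, on the other strand. The window of Mmp12 that starts nearest to the table's gene start, chr9:7344147-7344396, holds neither motif.

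Across the 41 members with a RefSeq window of 250 bases before and 50 after the start site, both strands searched, AP-1 matched in 4 (9.76%), against 8.97% of 27025 genes with a window. The fourth was Itga9, where the match begins at 38, after a RefSeq start site that lies 105002 bases inside the gene as the deposited table bounds it, so 2 of the 4 matches, those of Itga9 and Mmp12, lie away from the table's gene start. All 4 rose, and 26 of the 41 members with a window rose. GAAANNGAA matched in Mmp13 and Tgfbi, 4.88% of members against 9.76% of all genes. These shares say only which letters stand in the windows.

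All 4 annotated TIMP genes were listed, 3 risen and 1 fallen, with no overlap of groups. Timp1, the inducible inhibitor of most MMPs (ENSMUSG00000001131, chromosome X, 20870166 to 20874735, mm10), had 942, 322, 332 and 348 normalised counts in ARE-/- hearts, against 75.7, 53.8, 74.5 and 65.8 in WT hearts. All ARE-/- values were well above WT and replicate 1 was much higher than the other 3. The log2 difference was 2.68 ± 0.39 (DESeq2 adjusted p = 3.44e-13), and 2.31 without ARE-/- replicate 1. Timp3, which binds to the matrix and also inhibits ADAM proteases, had 848, 743, 751 and 765 normalised counts in ARE-/- hearts, against 369.9, 270.4, 584 and 311 in WT hearts, with replicate 3 the highest of WT. It rose by 1.08 ± 0.24 on the log2 scale (DESeq2 adjusted p = 0.000329).

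Timp2, which also takes part in activating the Mmp2 product, had 2024, 2247, 1923 and 2059 normalised counts in ARE-/- hearts, against 1318, 1314, 1658 and 1247 in WT hearts. The rise was 0.58 ± 0.10 on the log2 scale (DESeq2 adjusted p = 0.000565), and with offsets for GC content the edgeR estimate was 0.10 (adjusted p = 1). Timp4, the TIMP known for its high level in heart, fell. It had 89.1, 201, 230.1 and 203 normalised counts in ARE-/- hearts, against 338, 359, 421 and 340.2 in WT hearts. The lowest was ARE-/- replicate 1, and the log2 difference of -1.09 ± 0.32 (DESeq2 adjusted p = 0.00229) was -0.78 without it. Without WT replicate 3 an edgeR refit of the listed genes put Timp4 just outside the threshold, at an adjusted p of 0.0501. The order of the genes by FPKM differed between groups. In ARE-/- hearts Timp1 stood at 39.2 ± 29.4 and Timp2 at 37.9 ± 4.39, above Timp3 at 11.2 ± 1.85 and Timp4 at 8.47 ± 2.42. In WT hearts Timp2 at 22.1 ± 3.25 and Timp4 at 15.2 ± 1.83 led, with Timp3 at 4.82 ± 1.83 and Timp1 at 4.52 ± 0.726 (SD, n = 4 each). The neighbours Timp1 and Timp2, and Timp3 and Timp4, overlapped within their SD in ARE-/- hearts, and so did Timp3 and Timp1 in WT hearts.

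Few ADAM genes were listed, 4 of 33, and they moved in both directions. Adam8, a leukocyte ADAM, had 76.9, 89.5, 97.5 and 74.5 normalised counts in ARE-/- hearts, against 38.4, 14.4, 13.6 and 21.6 in WT hearts. The groups were apart, and the log2 difference was 2.04 ± 0.35 (DESeq2 adjusted p = 3.99e-07). Adam33 fell, with 22.9, 19.0, 29.0 and 27.2 normalised counts in ARE-/- hearts against 67.3, 75.4, 104 and 71.9 in WT hearts, a log2 difference of -1.67 ± 0.19 (DESeq2 adjusted p = 8.54e-08). Adam1a, a low transcript known from sperm, also fell, with 8.18, 4.48, 5.27 and 1.60 normalised counts in ARE-/- hearts against 27.6, 10.8, 13.6 and 23.6 in WT hearts (log2 difference -1.92 ± 0.53, DESeq2 adjusted p = 0.00778). Adam15 rose with overlapping groups. It had 520.0, 1091, 1033 and 1142 normalised counts in ARE-/- hearts, against 653, 656, 505 and 604 in WT hearts, so ARE-/- replicate 1 lay among WT (log2 difference 0.59 ± 0.28, DESeq2 adjusted p = 0.0440).

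The ADAMTS family, secreted proteases that trim procollagen and proteoglycans, had 4 of 24 genes listed, 2 in each direction and without overlap of groups. Adamts5, the main aggrecan-cutting enzyme in mouse, had 410.4, 189, 196 and 206 normalised counts in ARE-/- hearts, against 515, 597, 562 and 516 in WT hearts. Replicate 1 of ARE-/- lay nearer to WT than the others, and the log2 difference of -1.21 ± 0.27 (DESeq2 adjusted p = 0.000279) was -1.47 without it. Adamts9, which also cuts proteoglycans, had 93.2, 72.7, 77.3 and 101 normalised counts in ARE-/- hearts, against 114, 133, 137 and 143 in WT hearts (log2 difference -0.62 ± 0.13, DESeq2 adjusted p = 0.0151). Adamtsl2, a relative without protease activity that binds latent TGF-beta binding protein, had 262, 111, 126 and 117 normalised counts in ARE-/- hearts, against 74.5, 69.4, 62.0 and 68.9 in WT hearts. It rose by 1.06 ± 0.30 on the log2 scale (DESeq2 adjusted p = 0.00197), and by 0.77 without ARE-/- replicate 1. Adamts2, the procollagen N-proteinase, rose least of the 4, by 0.44 ± 0.10 on the log2 scale (DESeq2 adjusted p = 0.0227), with 301, 289.8, 364 and 333 normalised counts in ARE-/- against 231, 235, 215 and 264 in WT hearts.

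Proteases outside these families that degrade matrix, with their inhibitors, were also mostly higher, 11 of the 15 listed genes of 29 risen and 4 fallen, with a median of 0.96. The 4 of smallest adjusted p were Mcpt4 (-4.32 ± 0.22) and Tpsb2 (-5.42 ± 0.90), both proteases of mast cell granules, and the lysosomal cathepsins Ctsz (1.46 ± 0.08) and Ctss (3.47 ± 0.49). All 4 had an adjusted p of 8.3e-17 or less in the authors' DESeq2 test, and none had overlapping groups.

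Fibrillar collagens, the load-bearing fibres of the matrix, had 4 of 11 genes listed, 3 risen and Col5a3 fallen. Their summed level was 4876 to 6068 normalised counts in ARE-/- hearts, against 3038 to 3630 in WT hearts. Col3a1, the chain of type III collagen, was the most abundant matrix gene of the members at 47.8 ± 12.5 FPKM in ARE-/- and 24.0 ± 2.99 in WT hearts. It had 4740.4, 3552, 3482 and 3666 normalised counts in ARE-/- hearts, against 2109, 2272, 2623 and 2038 in WT hearts, and replicate 1 was the highest of ARE-/-. The log2 difference was 0.77 ± 0.13 (DESeq2 adjusted p = 2.53e-05). Col5a2, a type V chain that starts fibrils and lies 24.6 kb from Col3a1 on chromosome 1, had 893, 687, 594 and 635 normalised counts in ARE-/- hearts, against 395, 386, 433 and 348 in WT hearts. It rose by 0.83 ± 0.14 on the log2 scale, with no overlap (DESeq2 adjusted p = 3.11e-05).

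Col1a1, of type I collagen, had 392, 554, 645 and 634 normalised counts in ARE-/- hearts, against 334, 381, 355 and 353 in WT hearts. ARE-/- replicate 1 was close to the highest WT value, and the log2 difference was 0.62 ± 0.17 (DESeq2 adjusted p = 0.00569). Col5a3, a less common type V chain, had 42.5, 157, 155 and 136 normalised counts in ARE-/- hearts, against 294, 211, 219.8 and 299 in WT hearts. Its fall of -1.21 ± 0.47 (DESeq2 adjusted p = 0.0166) was -0.76 without ARE-/- replicate 1, the lowest library. It was called in that edgeR refit alone of the 8 that left out 1 library, with adjusted p of 0.00198 to 0.135 over the 8.

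The lysyl oxidases, enzymes that crosslink collagen and elastin, had 2 of 6 name-matched genes listed, both risen. Loxl3 (ENSMUSG00000000693, chromosome 6, 83034173 to 83052562, mm10) had 249, 199, 207 and 189.9 normalised counts in ARE-/- hearts, against 34.8, 46.7, 41.6 and 36.0 in WT hearts. The groups were far apart and tight, with a log2 difference of 2.40 ± 0.13 and a 5.27-fold rise (DESeq2 adjusted p = 3.67e-26). Loxl4 was low, with 31.1, 13.4, 22.8 and 22.4 normalised counts in ARE-/- hearts against 7.21, 8.38, 12.6 and 4.11 in WT hearts (log2 difference 1.46 ± 0.40, DESeq2 adjusted p = 0.0175). Of 23 genes of collagen processing 8 were listed, 6 risen and 2 fallen, with a median of 0.68. P4hb, a subunit of prolyl 4-hydroxylase, rose by 0.68 ± 0.07 and the collagen galactosyltransferase Colgalt1 by 0.93 ± 0.24. Plod3, a lysyl hydroxylase, rose by 0.71 ± 0.29, and the groups overlapped in Colgalt1 and Plod3. Fap, a fibroblast protease, fell by 1.75 on the log2 scale.

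The single listed basement membrane collagen and all 4 listed laminin chains were lower. Col4a4, of type IV collagen, had 63.8, 77.2, 58.0 and 82.5 normalised counts in ARE-/- hearts, against 129, 119.7, 124 and 139 in WT hearts, without overlap. The log2 difference was -0.87 ± 0.13 (DESeq2 adjusted p = 0.000346). Laminins are trimers of an alpha, a beta and a gamma chain, and Lama2, the alpha chain of muscle basement membrane, had 424, 392, 428 and 432 normalised counts in ARE-/- hearts, against 737, 664, 769 and 682 in WT hearts. Libraries of each group were close together, and the log2 difference was -0.77 ± 0.06 (DESeq2 adjusted p = 1.88e-08). Lamb1 had 671, 585, 623 and 643 normalised counts in ARE-/- hearts, against 1027, 1027, 947 and 1058 in WT hearts, a log2 difference of -0.69 ± 0.05 (DESeq2 adjusted p = 9.62e-08). Lama4, an alpha chain of vessel walls, had the smallest change of all members, -0.37 ± 0.09 on the log2 scale (DESeq2 adjusted p = 0.0393), with 627, 521, 549 and 566 normalised counts in ARE-/- against 829, 662, 677 and 765 in WT hearts. Lamc3 was low, at 10.6, 13.4, 18.4 and 8.01 normalised counts in ARE-/- hearts against 24.0, 25.1, 22.3 and 41.1 in WT hearts (log2 difference -1.14 ± 0.31, DESeq2 adjusted p = 0.0310).

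Of 26 other genes matched by a Col name, Col4a3bp among them, 7 were listed, 2 risen and 5 fallen. Col6a6 and Col6a3, chains of the microfibrillar type VI collagen that surrounds muscle cells, both fell. Col6a6 had 27.0, 36.9, 42.1 and 36.9 normalised counts in ARE-/- hearts, against 120.1, 108, 104 and 99.7 in WT hearts, a log2 difference of -1.59 ± 0.15 (DESeq2 adjusted p = 6.39e-10). Col6a3 had 163, 149.9, 126 and 155 normalised counts in ARE-/- hearts, against 277, 285, 197 and 244 in WT hearts, a log2 difference of -0.75 ± 0.14 (DESeq2 adjusted p = 0.000742). The groups of both were apart. Col14a1, a collagen on the surface of fibrils, rose with overlapping groups by 0.75 ± 0.27 on the log2 scale (DESeq2 adjusted p = 0.0223), with 489.7, 324, 261 and 296 normalised counts in ARE-/- against 186, 145, 271 and 207 in WT hearts.

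Col17a1, a transmembrane collagen of skin, was low in both groups, with 0.818, 3.36, 0.878 and 2.40 normalised counts in ARE-/- hearts against 15.6, 9.57, 4.84 and 9.25 in WT hearts (log2 difference -2.17 ± 0.51, DESeq2 adjusted p = 0.0135). Col19a1 had no read in any ARE-/- library, and 2.40, 12.0, 0 and 8.22 normalised counts in WT libraries, 20 reads in all. The WT level was 8.17 times a floor of 3 reads over the ARE-/- group. That ratio takes the 20 WT reads as exact and is no lower bound. The log2 difference was -2.83 ± 1.04, and the authors' log2 fold change was -1.70 (DESeq2 adjusted p = 0.0340). The groups met at 0. Col13a1 fell by 0.91 and Col23a1 rose by 0.68 on the log2 scale. Smoc2, a calcium-binding matrix protein that interacts with integrins and growth factors, was the 1 listed gene of 8 in the elastic fibre and SMOC class. It had 405, 489, 434 and 512 normalised counts in ARE-/- hearts, against 1053, 996, 781 and 1010.3 in WT hearts, without overlap, and the log2 difference was -1.06 ± 0.12 (DESeq2 adjusted p = 1.14e-09).

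**Figure D3:**
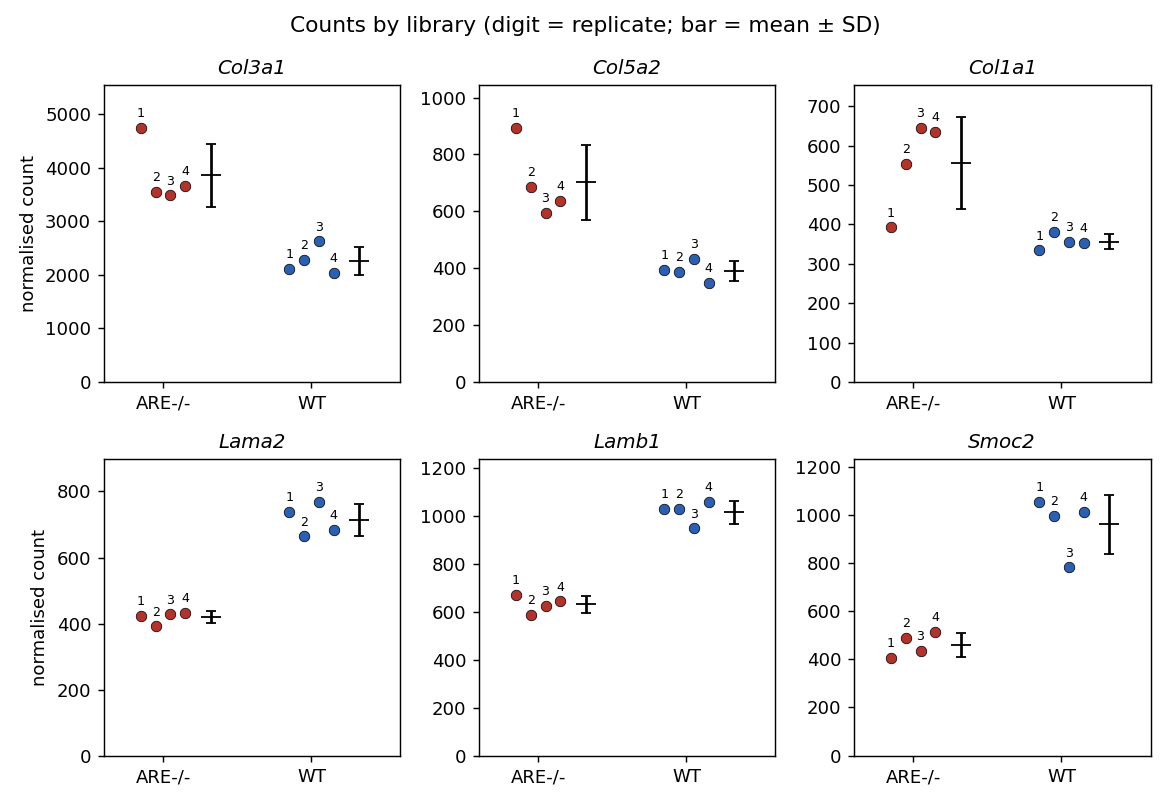
Normalised count (y axis, from 0) of 3 risen collagen genes (top) and of 2 laminin chains and Smoc2, which fell (bottom), in each of the 4 ARE-/- libraries (red, left) and 4 WT libraries (blue, right); the digit is the replicate number and the black bar is mean ± SD. ARE-/- replicate 1 is the highest for Col3a1 (4740.4) and the lowest of its group for Col1a1 (392), and in no panel do the groups overlap.

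Matrix proteins outside the collagen and laminin families, the matricellular proteins and proteoglycans, had 15 of 52 genes listed, 10 risen and 5 fallen, with a median of 1.06. The 4 of smallest adjusted p rose. Tenascin C (Tnc), which is made in remodelling tissue, averaged 224 ± 98.3 normalised counts in ARE-/- hearts and 23.8 ± 11.1 in WT hearts (SD, n = 4 each), a log2 difference of 3.23 ± 0.43. Fgl2, a fibrinogen-like protein, rose by 2.45 ± 0.34, Wisp2 by 1.93 ± 0.24 and osteopontin (Spp1) by 2.93 ± 0.47. Their adjusted p ran from 2.1e-15 for Tnc to 1.5e-09 for Spp1 in the authors' DESeq2 test.

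In the TGF-beta group 9 of 14 genes were listed, 7 risen and 2 fallen. The listed ligands, Tgfb1 and Tgfb3, rose, and the ligand gene Tgfb2 was not listed. Tgfb1 (ENSMUSG00000002603, chromosome 7, 25687002 to 25705077, mm10) had 383, 743, 796 and 796 normalised counts in ARE-/- hearts, against 215, 217, 303 and 209.7 in WT hearts. ARE-/- replicate 1 and WT replicate 3 lay closest to the other group without reaching it. The log2 difference was 1.48 ± 0.29 (DESeq2 adjusted p = 1.51e-07), and 1.86 without both. Tgfb3 had 425, 388, 407 and 392 normalised counts in ARE-/- hearts, against 246, 248, 233 and 253 in WT hearts, the smallest spread of the class, with a log2 difference of 0.72 ± 0.04 (DESeq2 adjusted p = 7.59e-07). Tgfbi, a matrix protein that TGF-beta induces, had 970.5, 696, 710.4 and 698 normalised counts in ARE-/- hearts, against 253, 304, 308 and 271 in WT hearts (log2 difference 1.42 ± 0.14, DESeq2 adjusted p = 1.36e-14).

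Of the receptors, Tgfbr2, which binds the ligand first, had 1083, 951, 995 and 1038 normalised counts in ARE-/- hearts, against 567, 486, 714 and 505 in WT hearts, a log2 difference of 0.85 ± 0.13 (DESeq2 adjusted p = 6.03e-06). Its signalling partner Tgfbr1 rose by 0.97 ± 0.37 on the log2 scale, and by 0.645 without ARE-/- replicate 1. The co-receptor betaglycan, Tgfbr3, fell, with 243, 245, 310.0 and 315 normalised counts in ARE-/- hearts against 456, 493, 438 and 421 in WT hearts, a log2 difference of -0.71 ± 0.11 (DESeq2 adjusted p = 0.000167). The remaining members were Ltbp2 and the receptor-associated gene Tgfbrap1, which rose with overlapping groups by 0.84 ± 0.31 and 0.56 ± 0.20, and Ltbp1, the main latent binding protein of Tgfb1, which fell by 0.61 on the same scale. Of 31 signalling partners of TGF-beta 12 were listed, 10 risen and 2 fallen, with a median of 0.77. Gdf15, a stress-induced ligand of the same superfamily, rose by 3.75 ± 0.38, Nrros, which holds latent TGF-beta on myeloid cells, by 1.56 ± 0.26, the endothelial receptor Acvrl1 by 1.15 ± 0.24, and Nbl1, a secreted BMP antagonist, by 0.61 ± 0.12.

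**Figure D4:**
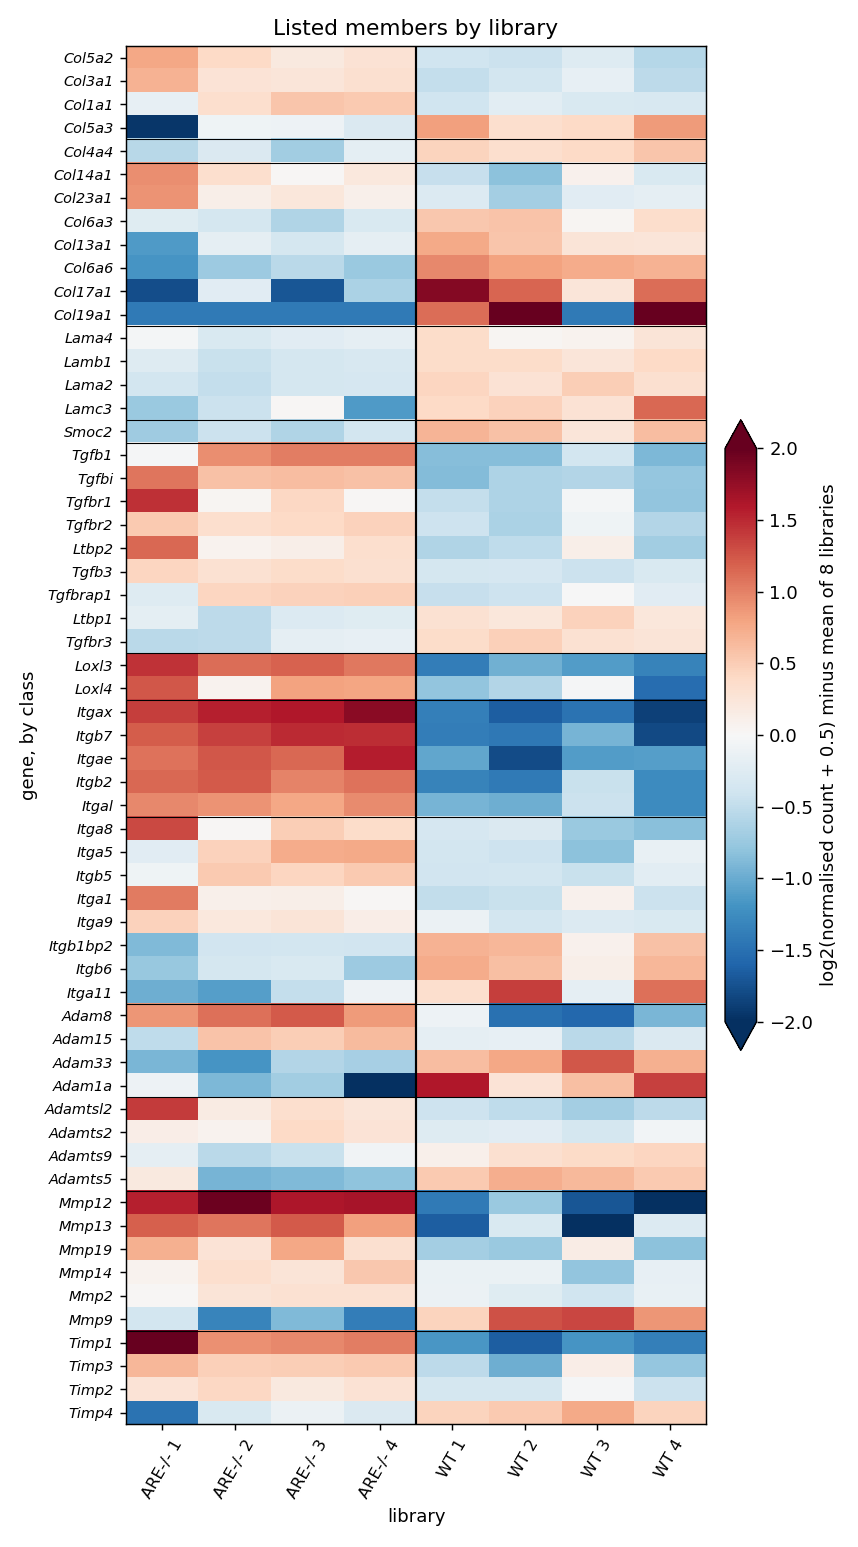
Level of each of the 59 members (rows, by class) in each library (columns, ARE-/- left and WT right), as log2(normalised count + 0.5) minus the gene's mean over the 8 libraries; red is above and blue below that mean, and the scale is cut at -2 and 2. ARE-/- replicate 1 and WT replicate 3 differ from their neighbours in many rows, and the 5 leukocyte integrin rows are red in each ARE-/- column and blue in each WT column.

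Markers of other cardiac cells were read beside these counts. Fibroblast markers, the cells that make most collagen, had 5 of 15 genes listed, 2 risen (Meox1 and Tcf21) and 3 fallen (Fap, Scara5 and Pi16), and summed to 1480 to 1808 normalised counts in ARE-/- hearts, against 1610 to 1931 in WT hearts. The sums overlapped between groups. Smooth muscle and pericyte markers had 6 of 12 listed, 2 risen (Cnn1 and Des) and 4 fallen (Rgs5, Pdgfrb, Kcnj8 and Abcc9). Their sums of 30151 to 58056 in ARE-/- and 25779 to 40181 in WT hearts overlapped, but they were mostly Des. Des was the only 1 of the 6 whose groups overlapped. Rgs5 averaged 1986 ± 874 normalised counts in ARE-/- and 5320 ± 190 in WT hearts (SD, n = 4 each). Of 12 endothelial markers 5 were listed, 1 risen (Cldn5) and 4 fallen (Kdr, Flt1, Egfl7 and Fabp4), each without overlap of groups. Their sums were 11608 to 13140 in ARE-/- hearts, against 14292 to 17637 in WT hearts. These sums were mostly Fabp4, which averaged 8797 ± 1050 normalised counts in ARE-/- and 11886 ± 1014 in WT hearts (SD, n = 4 each). Of 10 markers of valve and epicardium 2 were listed, Krt19 and Clu, and both rose, Krt19 with overlapping groups. Their sums of 10378 to 11887 in ARE-/- and 5639 to 7279 in WT hearts were mostly Clu. The 1 listed gene of the skeletal muscle list, Acta1, which the stressed heart also makes, rose by 1.68 ± 0.24. No listed marker of any of these lists was at 0 in a whole group, and their part in the matrix gene values was not tested.

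The base composition of the members' transcripts was compared between directions. The median GC content of the longest annotated transcript was 53.0% (range 40.2% to 58.9%) in the 36 risen and 51.1% (43.7% to 61.6%) in the 23 fallen members. Over the 59 members the Spearman correlation of GC content and log2 difference was -0.07. Over 2408 listed genes above the median level it was 0.48. These are correlations across genes of the same libraries and genes are not independent replicates.

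The counts were recomputed in refits of the listed genes. With edgeR and the authors' size factors 31 members rose and 22 fell, against 46.3% and 42.8% of listed genes, and 34 of 59 members (21 risen, 13 fallen) kept their call when each library was left out in turn, against 50.9% of all listed genes. The other 25 lost their call in at least 1 of these 8 refits. Timp4, Col17a1, Itga8, Itga5, Tgfbr1, Mmp19 and Col1a1 lost it in 1 to 4 of them. Itga11, Loxl4, Adam1a, Col14a1, Mmp2, Adamts9, Lama4, Lamc3, Adamts2, Mmp14, Adam15, Tgfbrap1, Col19a1, Col13a1, Ltbp2, Col5a3, Itga1 and Col23a1 lost it in 5 to 8. Without both libraries that stood apart all 59 were called in the same direction, as were 98% of all listed genes. Scaling moved the balance, from 53.2% of called members risen with trimmed mean scaling (42.1% of all called genes) to 74.5% with library totals (70.7%). The trimmed mean scale was estimated from the listed genes alone, all called by the authors, where the method assumes that most genes are unchanged. These scalings move the median of all listed genes by -0.13 and 0.20 on the log2 scale. With offsets that remove the trend with GC content, which move that median by -0.40, 20 members rose and 17 fell, against 30.8% and 22.8% of listed genes, and the estimates of Col1a1, Mmp2, Adamts2 and Adam15 lay below 0. The others that lost their call with these offsets were Itgb5, Mmp14, Timp2, Col23a1, Itga5, Ltbp2, Itga9, Tgfb3, Tgfbrap1, Col3a1, Adamtsl2 and Loxl4 among the risen, and Lama4, Itgb6, Tgfbr3, Adamts9, Timp4 and Col19a1 among the fallen. If the 3 close libraries of each group are summed to 1 replicate, 6 members rose, against 5.66% of listed genes, and 0 fell, against 0.498% (edgeR, adjusted p). In that refit 20 members were higher and 13 lower at an unadjusted p under 0.05, against 27.6% and 20.6% of listed genes. The 6 were Itgax, Itgb7, Itgae, Mmp12, Timp1 and Loxl3, which were called in all 16 refits.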

How the data were processed

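Total RNA of 8 hearts was sequenced, and the submitters' processing notes name STAR, DESeq2 and mm10. The sources used here do not give the read counter, its strand setting or its annotation, so a gene and an overlapping or antisense gene cannot be told apart. Per the file headers, the deposited table has raw counts of reads for each gene in every library. FPKM stand beside them, computed by the authors, and the authors' mean normalised signal of each group, from which each size factor was solved with a largest mismatch of 1.2e-09. Each log2 fold change and p-value in it comes from the authors (DESeq2), and it holds only genes with an adjusted p under 0.05. Each library was taken as 1 mouse. The labels do not exclude pooled or repeated RNA, in which case the p-values measure technical spread.

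Log2 differences and their SE were computed from normalised counts with an offset of 0.5. Refits of the listed genes used edgeR 4.0.16 (quasi-likelihood) in R 4.3.3 or DESeq2 1.42.0, with Benjamini-Hochberg adjustment as if 19606 genes had been tested; they serve as alternatives only, because the genes were selected on the same libraries. The edgeR script was tested on simulated data. Library totals were solved from counts, FPKM and gene length. The members, classes and lists were chosen with earlier results of these data known. In each class the text gives every library's value for up to 4 members of smallest adjusted p, for the largest rise and fall, and for all members of classes with 4 or fewer listed; of each list it names up to 4 genes by adjusted p. A further table of Gene Ontology terms was not used here. The 8 libraries limit the precision, and counts near 0 carry counting error as well. The result for 1 further item is not reported here.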

Additional observations from a re-analysis of the deposited data

Results flagged for a closer look

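Single libraries far from the other 3 of their group were found in 17 of the 118 groups of 4 examined (59 members in ARE-/- and in WT), where chance flags about 1 in 20 groups. Of these 10 concern ARE-/- replicate 1, 5 WT replicate 3, and 1 each WT replicates 2 and 4. The former pair, ARE-/- replicate 1 and WT replicate 3, strayed most over listed genes above the median level too. Their mean absolute deviations over those genes were 0.42 and 0.21, where every remaining library had 0.097 to 0.16. The share of all listed genes flagged by this rule is not given, so the count is not specific to the members. In ARE-/- replicate 1 the normalised count was higher than in the other ARE-/- libraries for Timp1 (942, against 322 to 348), Col3a1 (4740, against 3482 to 3666), Tgfbi (970.5, against 696 to 710.4), Itga1 (495, against 246 to 263), Adamts5 (410.4, against 189 to 206), Adamtsl2 (262, against 111 to 126) and Col23a1 (181, against 103 to 113). It was lower there for Itgb1bp2 (1096, against 1542 to 1566), Tgfb1 (383, against 743 to 796) and Tgfbrap1 (139.8, against 225 to 232). In WT replicate 3 it was higher than in the other WT libraries for Tgfb1 (303, against 209.7 to 217), Itgb2 (265, against 135 to 150.1), Itga1 (256, against 172 to 179) and Mmp19 (64.9, against 32.9 to 36.0), and lower for Mmp14 (215, against 332 to 339.8). Itgae was low in WT replicate 2 (12.0, against 19.4 to 20.4) and Lamc3 high in WT replicate 4 (41.1, against 22.3 to 25.1). The causes were not tested.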

How the results depend on the processing

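The counts of members listed as risen and fallen, 36 and 23, moved with several choices. At least a 2-fold change left 16 risen and 11 fallen, and an adjusted p under 0.01 left 27 and 15. Shares over all listed genes are not given for these thresholds. Library totals gave 12 fallen, against 1004 of the 4820 listed genes. Leaving out each library in turn gave 22 to 33 risen and 15 to 21 fallen in edgeR refits. Of the 4820 listed genes, 1535 to 2359 rose and 1219 to 2168 fell in those refits. Summing the close libraries, chosen after seeing the data, left 6 and 0, where 4 samples and no longer 8 enter the fit. GC offsets, added at the same stage, can take out real differences too and left 20 risen and 17 fallen, with estimates of -0.12 for Col1a1, -0.13 for Adam15 and -0.077 for Adamts2, none of them past the threshold. The cause was not tested for the other settings. The DESeq2 refit gave 36 and 23, against 2505 and 2304 of the 4820 listed genes. Replicate numbers did not pair the libraries: deviations of same-numbered libraries correlated by 0.04, 0.04, -0.14 and 0.28. With the number as a replicate block 27 members rose and 17 fell, against 38.7% and 33.4% of listed genes, and 1 of the 4 ARE-/- libraries, replicate 4, correlated best with the WT library of its number. Of the 48 members given by library, 5 lost their call with TMM, 9 with library totals and 9 with the block. With GC offsets 13 lost it (beside the 3 whose sign turned), and with summed libraries 42. Of the 4820 listed genes, TMM called 3922 and library totals 3429. The block called 1863 higher and 1610 lower, GC offsets 1486 and 1101, and summed libraries 273 and 24. Offsets of 1 and 5 in place of 0.5 changed no direction. With 5 the log2 difference was -1.08 for Col17a1 and -0.93 for Col19a1, against -2.17 and -2.83 with 0.5. The low counts of Col17a1, Col19a1 and Adam1a limit their precision.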

Other observations

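The values of the granule proteases Mcpt4 and Tpsb2 had been seen before 14 genes known from mast cells were looked up. Of these 14, 8 were listed, 7 of them fallen and 1 risen in ARE-/- hearts. The 7 include Mcpt4, Tpsb2 and Cma1 of the protease list above, so those falls are no separate observation. Of all genes tested 24.6% were listed, and 47.9% of the listed genes fell. Kit, Ms4a2, Gata2, Mcpt1, Mcpt2 and Mrgprb2 were not listed. Mcpt4 averaged 5.79 ± 1.64 normalised counts in ARE-/- and 122 ± 10.4 in WT hearts, Tpsb2 3.55 ± 3.22 in ARE-/- and 114 ± 20.7 in WT, and Cma1 5.29 ± 4.45 in ARE-/- and 89.1 ± 21.3 in WT (SD, n = 4 each). The granule carboxypeptidase Cpa3 averaged 5.13 ± 2.65 in ARE-/- and 47.0 ± 10.6 in WT hearts. The receptor chain Fcer1a, Tpsab1 and Mrgprb1 were low in WT and also fell. Hdc, the histamine-making enzyme that other cells also express, went the other way, at 239 ± 39.8 in ARE-/- and 57.8 ± 20.3 in WT hearts. No library of one group reached the other for Mcpt4, Tpsb2, Cma1, Cpa3 or Hdc.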
